A study of Homo sapiens with 9 samples.

Results

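The 30 genes described here encode enzymes of cholesterol synthesis, the SREBP transcription factors with the proteins that hold or release them, and proteins that move or store cholesterol. They were chosen by symbol from a fixed list, and all 30 were found among the 27548 rows (25245 distinct symbols) of the deposited expression table. Where a symbol stood on several rows, as for FDFT1 and LSS, the row with the highest mean over the 9 libraries was kept.

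Cells build cholesterol from acetyl-CoA through mevalonate, the isoprenoid diphosphates, squalene and lanosterol. When sterols run low in the endoplasmic reticulum, the escort SCAP carries the precursors of SREBP-1 and SREBP-2 to the Golgi, where they are cut and released as active transcription factors. INSIG1 and INSIG2 retain SCAP when sterols are plentiful, NPC1 and NPC2 export cholesterol from lysosomes, and SOAT1 esterifies it for storage.

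The cells were MDA-MB-231, a long-established line from a human breast adenocarcinoma of the triple-negative kind, and RNA sequencing gave 3 libraries for each of 3 groups. TLX, encoded by NR2E1, is an orphan nuclear receptor best known from neural stem cells. CTL+siCTL (S1 to S3) are control cells that received a negative control siRNA. TLX+siCTL (S4 to S6) overexpress TLX and received that same siRNA, and TLX+siTLX (S7 to S9) overexpress TLX and received one that targets it. Transfection lasted 48 h throughout. All 3 groups thus share the transfection, and no group of control cells received the TLX siRNA, so what that siRNA does in cells without extra TLX was not measured. The sources used here do not give the means by which TLX was overexpressed, whether the cells are 1 clone, or whether replicates came from different cultures. The p-values therefore rest on the variation among these libraries, which may be technical. The titles of the control samples carry the word PC3, also the name of a prostate line, which no label explains.

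The values are log2 CPM (counts scaled to library size) as deposited, and differences between groups are log2 fold changes on that scale with the moderated standard error (SE) of limma. Rebuilt from the lowest values, library sizes were 73.8 to 91.8 M reads. The 30 genes had mean log2 CPM values from 3.54 to 8.61, and the lowest single value rested on 687 rebuilt reads (TM7SF2), a counting error of 3.82% that covers counting only. NR2E1 checks the labels. It read -4.59, -4.28 and -4.50 log2 CPM in control cells, 0.28, -0.84 and 0.23 with TLX overexpression and -2.61, -3.40 and -1.77 after the siRNA, with no overlap between any of the groups. NR2E1 rose 20.4-fold with overexpression (log2 fold change 4.35, SE 0.47, limma adjusted p = 0.000133) and fell 5.60-fold with the siRNA (-2.48, SE 0.47, adjusted p = 0.00494), yet stayed 3.64-fold above the control cells (adjusted p = 0.0134). The authors' deposited table gives 34.0-fold, 6.21-fold and 5.47-fold for these steps, and values as low as those of the control cells understate a fold on the scale used here. The call against control was lost without S1 and on a log2(CPM + 1) scale, and reads from the added and the endogenous copy cannot be told apart. The mesenchymal markers VIM, CD44 and AXL lay between 8.97 and 10.82 log2 CPM in every library, and they moved with the groups. With overexpression AXL was at 1.13 (adjusted p = 4.3e-07), CD44 at 0.46 (adjusted p = 0.000116) and VIM at -0.64 (adjusted p = 8.02e-05), and with the siRNA VIM was at 0.68 (adjusted p = 0.000115), CD44 at 0.31 (adjusted p = 0.00174) and AXL at 0.29 (adjusted p = 0.000711). The summed mesenchymal list ran from 11.45 to 11.49, 11.59 to 11.61 and 11.99 to 12.08 in the 3 groups. The luminal receptor genes ESR1 and PGR did not exceed 1.14 log2 CPM, and the summed luminal list (ESR1, PGR, FOXA1, GATA3 and SPDEF) ranged over 5.58 to 5.71 in control cells, 4.21 to 4.35 under TLX overexpression and 4.77 to 5.04 after the TLX siRNA, led by SPDEF in control cells and by SPDEF or GATA3 in the others. SPDEF was at -2.27 with overexpression (adjusted p = 3.59e-06), while GATA3 was at 0.93 with overexpression and again with the siRNA (adjusted p = 0.000551 and 0.000903). The part of these marker shifts in the results was not tested. Of 6 prostate markers, KLK2, KLK3 and HOXB13 did not exceed -3.31 log2 CPM in any of the 9 libraries, HOXB13 lay at the lowest value of the table in 7 of them, and the summed prostate list was 5.28 to 5.37, 5.29 to 5.38 and 5.36 to 5.44 in those groups in turn. In bulk RNA, fewer cells with a transcript and less of it per cell cannot be told apart.

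Promoters of several of these genes are textbook targets of SREBP, which acts together with the general factor NF-Y, and 4 are printed, each for a reason met again below. None of them is a gene that rose with overexpression. STARD4 stood furthest below control after the siRNA, MVD had the largest fall of an enzyme with overexpression, SREBF2 holds the only match among these genes to the sterol response element core, and INSIG2 rose with the siRNA. Each is the run of 250 bases before a RefSeq start (GRCh38.p14), written along the gene's strand, with matches to CCAAT on either strand (the NF-Y box, read as ATTGG on the opposite strand) and to the core TCACNCCAC in capitals.
SREBF2, chr22:41832855-41833104, plus strand: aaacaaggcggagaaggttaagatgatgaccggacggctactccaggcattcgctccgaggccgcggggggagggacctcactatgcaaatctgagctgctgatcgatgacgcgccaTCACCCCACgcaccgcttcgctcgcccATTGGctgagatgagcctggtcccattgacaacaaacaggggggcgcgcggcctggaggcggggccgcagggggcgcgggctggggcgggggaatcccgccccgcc
STARD4, chr5:111512536-111512785, minus strand: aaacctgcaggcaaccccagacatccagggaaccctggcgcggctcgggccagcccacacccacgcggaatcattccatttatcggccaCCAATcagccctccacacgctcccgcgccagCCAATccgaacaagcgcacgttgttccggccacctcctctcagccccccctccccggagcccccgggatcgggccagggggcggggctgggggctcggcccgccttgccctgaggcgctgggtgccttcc
MVD, chr16:88663092-88663341, minus strand: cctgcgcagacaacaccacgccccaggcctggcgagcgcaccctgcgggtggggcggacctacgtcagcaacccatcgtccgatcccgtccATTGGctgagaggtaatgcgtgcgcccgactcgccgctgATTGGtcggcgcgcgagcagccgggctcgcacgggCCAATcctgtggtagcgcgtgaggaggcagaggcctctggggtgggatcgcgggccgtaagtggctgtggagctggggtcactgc
INSIG2, chr2:118088221-118088470, plus strand: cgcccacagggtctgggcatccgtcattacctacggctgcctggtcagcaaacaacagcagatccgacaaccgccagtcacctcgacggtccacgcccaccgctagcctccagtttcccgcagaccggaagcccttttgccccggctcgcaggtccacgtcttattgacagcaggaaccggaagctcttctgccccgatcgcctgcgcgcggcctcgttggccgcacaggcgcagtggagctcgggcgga
Counted from the start, the SREBF2 core begins at -133 and its CCAAT match at -106. STARD4 has CCAAT matches at -161 and -130, MVD has 3, at -159, -120 and -85, and this INSIG2 window holds neither motif.

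In the table of RefSeq promoters, 27 of the 30 genes matched, with 36 starts, each as a window from 250 bases before to 50 after the start. ACAT2, FDFT1 and SQLE were not matched. CCAAT stood in 22 of the 36 windows (61.1%), against 34.6% of the 35116 windows of the table, and at least 2 copies in 14 (38.9% against 10.8%). The core TCACNCCAC stood in 1 window (2.78% against 1.13%), the GC box GGGCGG in 32 (88.9% against 45.0%) and the E-box CACGTG in 5 (13.9% against 7.26%). Both strands were searched, and each motif was counted whether or not it overlapped another. The 35116 windows cover genes whether or not these cells express them, while the genes described here are all expressed. Shares over expressed genes alone were not counted, so how far the higher shares are particular to these genes was not tested. These matches are a description and say nothing of whether a factor bound.

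**Figure D1:**
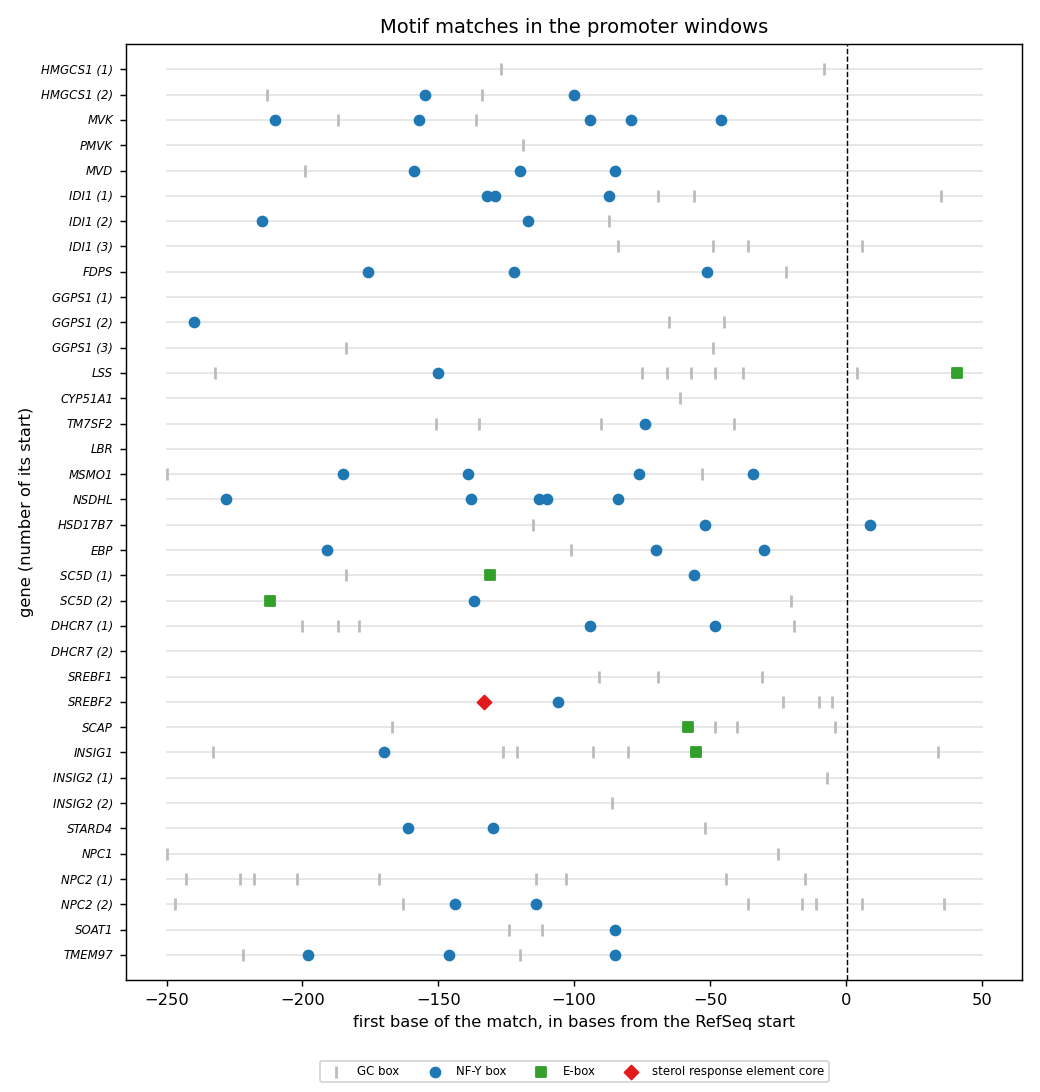
Matches to 4 motifs in the 36 promoter windows of 27 genes, with the distance of the first base of a match from the RefSeq start on the x axis (in bases) and 1 line for each start. NF-Y boxes (circles) lie in 22 windows, and the sterol response element core (diamond) in that of SREBF2 alone.

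The spread between libraries of a group was small in the control cells and wide after the TLX siRNA. The median SD of the 30 genes was 0.04, 0.11 and 0.22 for S1 to S3, S4 to S6 and S7 to S9. Library S9 stood apart in the size of its shift: its median over the 30 genes lay 0.35 below the mean of S7 and S8 (-0.35, with a range of -0.83 to 0.46). It was the lowest of its group for 23 of 30 genes and for 17 of the 20 enzymes. Over the 12564 rows with a mean of at least 1, the same median was -0.01, with 5% to 95% of rows between -0.34 and 0.29. Library S6 was the lowest of its group for 22 of 30 genes and 18 of 20 enzymes, by a smaller median of -0.14. In the control group S3 was the lowest for 21 of 30 genes and 15 of 20 enzymes, by a median of -0.04. Each group thus had a library lowest for most of the genes, and these counts alone do not set S9 apart. How often each library was lowest over all rows was not counted. The counts over the 30 genes are therefore given with and without S9.

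**Figure D2:**
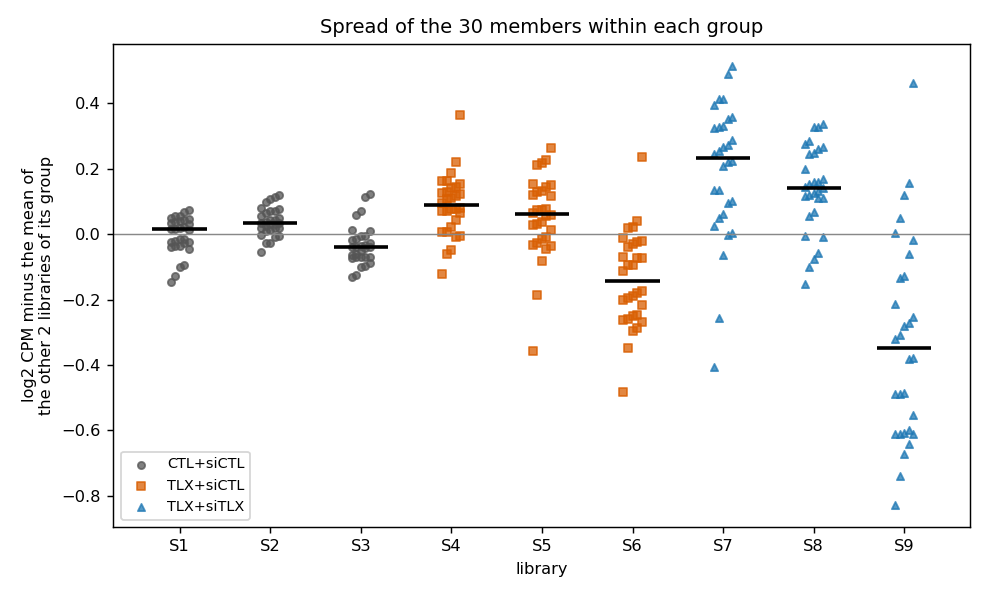
Each gene's log2 CPM minus the mean of the other 2 libraries of its group (y axis) for the 9 libraries (x axis), 1 point a gene and a bar at the median. The bar of S9 lies at -0.35 and that of S6 at -0.14, while the bars of S1 to S3 lie between -0.04 and 0.03.

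With TLX overexpression most of the pathway fell. Of the 30 genes, 19 were lower (63.3%) and 2 higher (6.67%) in TLX+siCTL, against the control cells, at a limma adjusted p under 0.05, and the median log2 fold change was -0.58. Over all 27548 rows 15.1% were lower and 15.0% higher, with a median of 0.00, and over the 12564 rows with a mean of at least 1, among which all 30 genes lie, 27.4% were lower and 29.3% higher, with a median of 0.01. Without S9, 21 were lower and 3 higher. When the fit was limited to the 12564 rows, 4 were higher, with LBR and SCAP added. The falls of ACAT2, FDFT1, CYP51A1, MSMO1 and TMEM97 each missed the threshold when some single libraries among S1 to S6 were left out, and the other 16 calls held under all settings tried.

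The TLX siRNA did not lift the pathway as a whole. Relative to TLX+siCTL, 9 of the 30 genes were lower (30%) and 5 higher (16.7%) in TLX+siTLX, with a median of -0.24. Over all rows 10.9% were lower and 12.7% higher, and over rows with a mean of at least 1 the shares were 22.0% and 23.8%. The shares among the 30 genes are thus not far from those of expressed rows. Without S9, 8 were lower and 5 higher, and the median moved to -0.09. The count of lower genes was not stable: it was 5 without S1, S2 or S3, 3 without S4 or S5, 5 without the intensity trend and 3 in a fit of these 2 groups only. The calls of LSS, LBR, SREBF1, INSIG2, STARD4, NPC1 and NPC2 held under all settings, and those of MVD, FDPS, FDFT1, HSD17B7, SREBF2, SCAP and INSIG1 did not.

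Set directly against the control cells, TLX+siTLX had 20 of 30 genes lower (66.7%) and 3 higher (10.0%), with a median of -0.72. The background was 17.0% lower and 17.7% higher over all rows, and 31.2% and 32.4% over rows with a mean of at least 1. Without S9, 19 were lower and 3 higher, with a median of -0.55, and EBP was the call lost. EBP was also lost without S1, S2, S5 or S8, SQLE without S1, and both of them with SC5D and SOAT1 in a fit of only these 2 groups, which gave 16 lower genes. The other 19 calls held under all settings tried. The 3 comparisons share groups, so they are not independent of each other. In the F test over the 3 groups 26 of 30 genes passed, with and without S9, against 40.7% of all rows and 75.1% of rows with a mean of at least 1. The 4 that did not pass were PMVK, NSDHL, EBP and TMEM97.

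**Figure D3:**
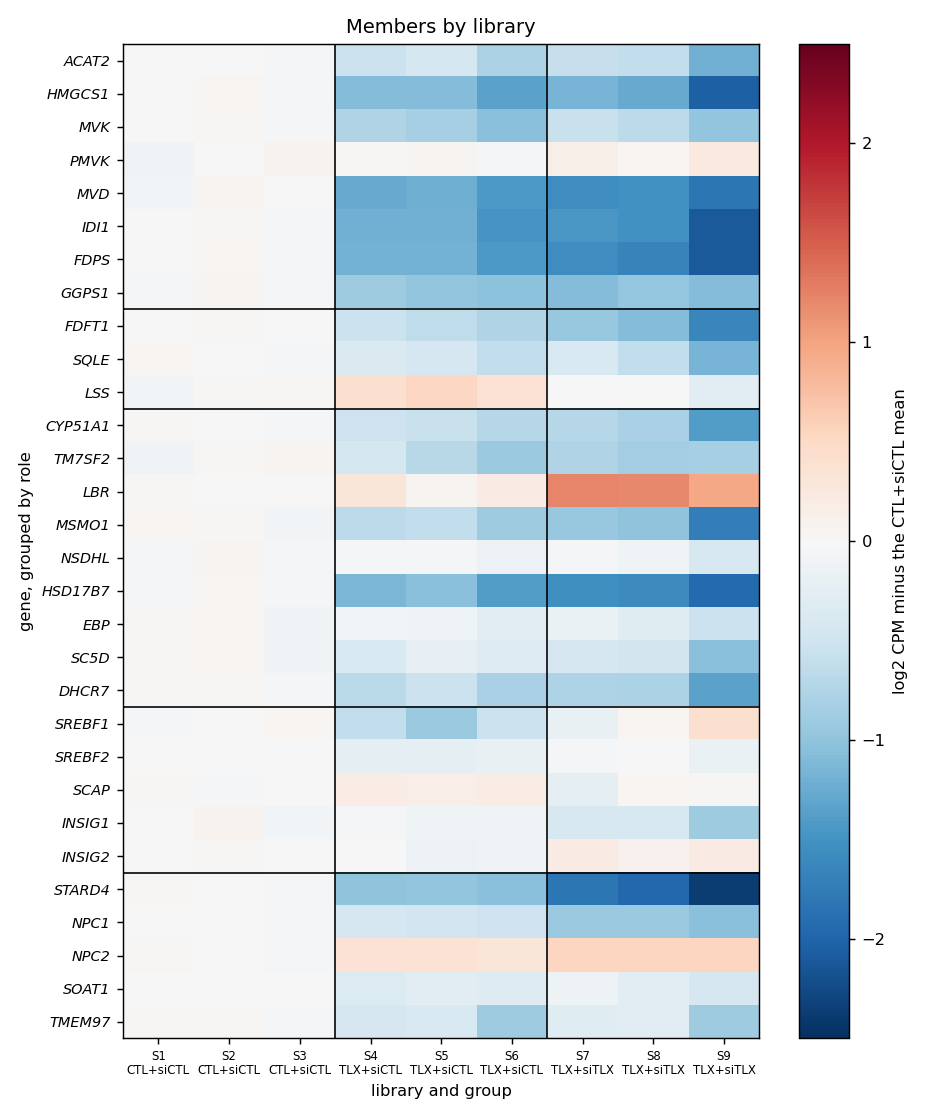
Log2 CPM minus the CTL+siCTL mean (colour, blue lower and red higher) for the 30 genes (rows, by role) in the 9 libraries (columns). The median over the 30 genes is -0.43, -0.46 and -0.66 in S4 to S6 and -0.49, -0.61 and -1.02 in S7 to S9.

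**Figure D4:**
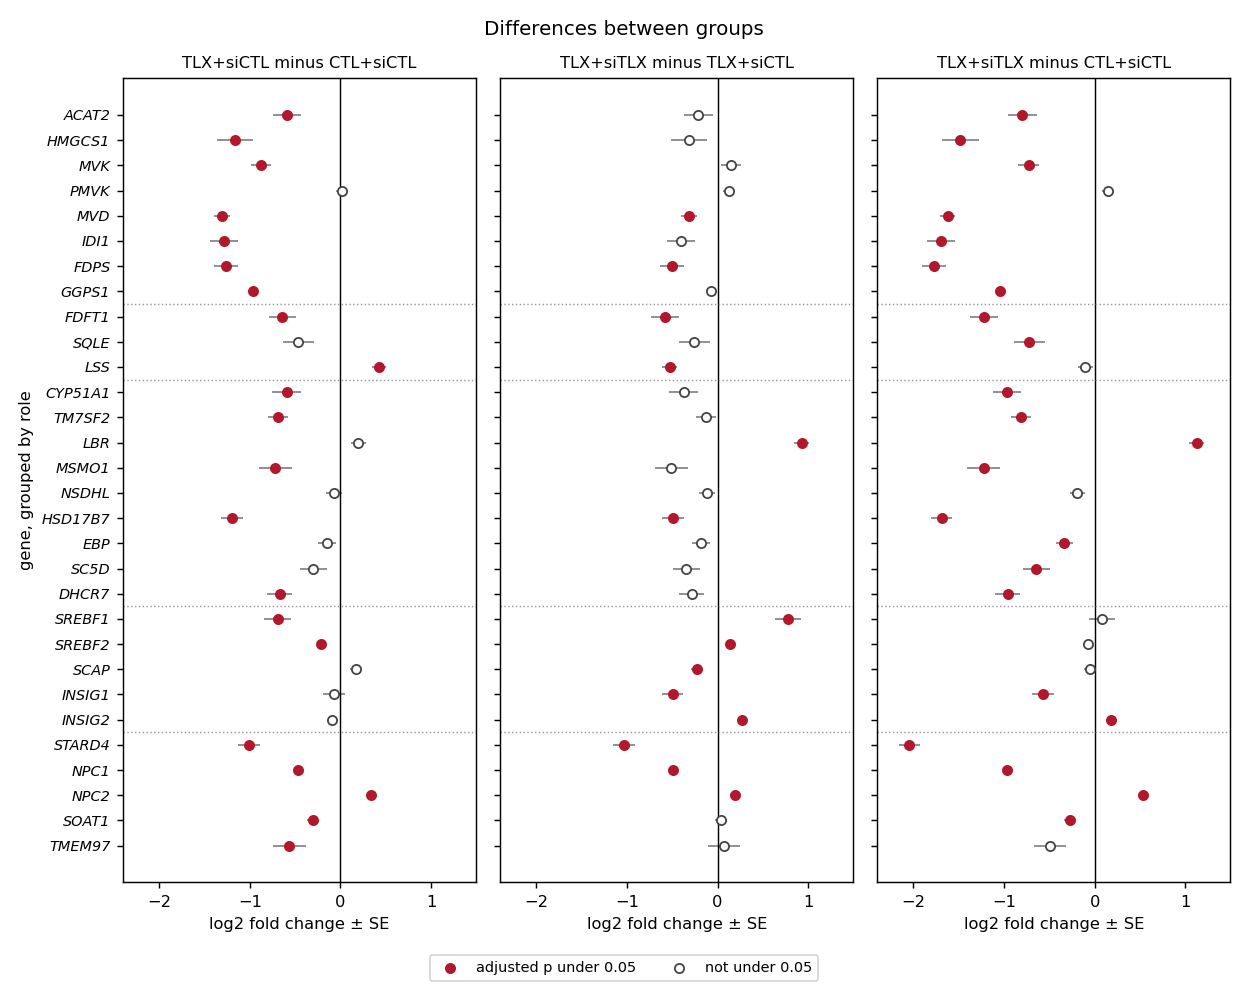
Log2 fold change ± SE (x axis) of the 30 genes (y axis, by role) in the 3 comparisons, with filled points at a limma adjusted p under 0.05. Filled points number 19 lower and 2 higher in the first panel, 9 and 5 in the second and 20 and 3 in the third.

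Counts by role come from the fit of all 9 libraries and are read against the rows with a mean of at least 1. Of those rows, 27.4% were lower and 29.3% higher with overexpression. The shares were 22.0% and 23.8% in the siRNA step, and 31.2% and 32.4% against control. The mevalonate and isoprenoid steps had the lowest median among the 3 stretches of the pathway with overexpression and against control, though not in the siRNA step. In TLX+siCTL against CTL+siCTL 7 of the 8 genes fell and none rose, with a median log2 fold change of -1.07. With the siRNA 2 of 8 fell further (median -0.26), and against the control cells TLX+siTLX had 7 of 8 lower (median -1.26). PMVK (phosphomevalonate kinase) did not pass, with log2 fold changes of 0.02, 0.13 and 0.15 in the 3 comparisons and no adjusted p below 0.13.

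GGPS1 (chromosome 1, 235327350 to 235344532, plus strand) makes geranylgeranyl diphosphate, used to anchor small GTPases to membranes. It read 5.62, 5.72 and 5.59 log2 CPM in S1 to S3, 4.75, 4.65 and 4.63 in S4 to S6 and 4.56, 4.68 and 4.56 in S7 to S9. All TLX-overexpressing libraries lay below all control libraries, and both overexpressing groups overlapped. The fold change was -0.97 with overexpression (SE 0.06, adjusted p = 4.26e-06), and -0.08 with the siRNA (adjusted p = 0.421). S9 equalled S7 here at the printed precision.

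MVD (chromosome 16, 88651935 to 88663161, minus strand), whose CCAAT-rich promoter is printed above, decarboxylates mevalonate diphosphate to isopentenyl diphosphate. Its values were 6.65, 6.79 and 6.72 in the control libraries, 5.47, 5.50 and 5.29 under TLX overexpression and 5.17, 5.21 and 4.92 after the siRNA. The 3 groups did not overlap and stepped down in that order. MVD fell to 40.5% of the control level with overexpression (-1.31, SE 0.09, adjusted p = 8.23e-06). The further fall with the siRNA was small (-0.32, SE 0.09, adjusted p = 0.0277) and did not pass without S9 (-0.23, adjusted p = 0.0697).

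FDPS (chromosome 1, 155308748 to 155320666, plus strand) builds farnesyl diphosphate, where the sterol and non-sterol branches part. It read 9.29, 9.33 and 9.22 in control cells, 8.11, 8.09 and 7.84 in overexpressing cells and 7.72, 7.61 and 7.18 in those given the TLX siRNA. Again no groups overlapped. FDPS fell to 41.5% of control with overexpression (-1.27, SE 0.13, adjusted p = 0.000109) and to 29.2% of control after the siRNA (-1.78, adjusted p = 1.04e-05). The siRNA step itself was -0.51 (adjusted p = 0.023), and -0.35 without S9 (adjusted p = 0.0342).

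The other 4 genes fell with overexpression and did not pass in the siRNA step. IDI1, which isomerizes isopentenyl diphosphate, changed by -1.29 (SE 0.16, adjusted p = 0.000258) and then -0.41 (adjusted p = 0.102). HMGCS1, the cytosolic HMG-CoA synthase, changed by -1.17 (SE 0.20, adjusted p = 0.00199) and then -0.32 (adjusted p = 0.341). S9 was at 6.37 log2 CPM for this gene, against 7.25 and 7.15 in S7 and S8. MVK, mevalonate kinase, changed by -0.87 (SE 0.11, adjusted p = 0.00038) and then 0.15 (adjusted p = 0.449). ACAT2, the cytosolic thiolase at the head of the pathway, changed by -0.59 (SE 0.16, adjusted p = 0.0208) and then -0.21 (adjusted p = 0.437). Without S9 the siRNA values of IDI1, HMGCS1, MVK and ACAT2 were -0.20, -0.04, 0.27 and -0.01, and none passed.

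The squalene and lanosterol steps did not move as 1 block. FDFT1 fell with overexpression and with the siRNA, LSS rose and then fell, and SQLE passed only in the comparison of TLX+siTLX with the control cells. FDFT1, squalene synthase, commits farnesyl diphosphate to sterols. It stands on 2 rows, and the one with more reads belongs to an identifier outside the GENCODE 29 primary annotation, so its values are uncertain. On that row it read 7.53, 7.57 and 7.52 in S1 to S3, 7.01, 6.91 and 6.79 in S4 to S6 and 6.60, 6.45 and 5.91 in S7 to S9. The groups did not overlap. The fold change was -0.64 with overexpression (SE 0.15, adjusted p = 0.0112), -0.58 with the siRNA (adjusted p = 0.023; -0.38 without S9) and -1.22 against control (adjusted p = 0.000229). The annotated row, at 56.3% of that CPM, gave -0.74, -0.48 and -1.22 in the same order, with adjusted p = 0.00217, 0.0268 and 8.57e-05.

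LSS (chromosome 21, 46188141 to 46228824, minus strand), lanosterol synthase, closes the sterol rings. It read 8.37, 8.46 and 8.47 in the control libraries, 8.83, 8.96 and 8.80 under TLX overexpression and 8.42, 8.43 and 8.15 after the siRNA. The TLX+siCTL libraries lay above all the others, and the remaining groups overlapped. LSS rose by 0.43 with overexpression (SE 0.08, adjusted p = 0.00323) and fell with the siRNA (-0.53, SE 0.08, adjusted p = 0.00153), ending at -0.10 from control (adjusted p = 0.414). In the reported fit of all 9 libraries no other enzyme of the 20 rose with overexpression. LBR passed as higher under some other settings, such as without S9 (adjusted p = 0.0374) and after quantile normalization (adjusted p = 0.0432). Both LSS calls held under every setting tried. A second row of LSS held 2.11% of its CPM.

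SQLE, squalene epoxidase, is a rate-limiting enzyme of the pathway. It read 6.61, 6.56 and 6.52 in control cells, 6.20, 6.14 and 5.96 in overexpressing cells and 6.19, 5.95 and 5.40 in those given the TLX siRNA. Control libraries lay above all others, and the overexpressing groups overlapped. The fold change with overexpression was -0.47 (SE 0.17, adjusted p = 0.0756, and 0.00581 without S9), and the authors' deposited table gives a false discovery rate of 0.043 for it. Against control, TLX+siTLX was lower by -0.72 (adjusted p = 0.00994).

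From lanosterol to cholesterol, 5 of 9 genes fell and none rose with overexpression (median -0.60). With the siRNA 1 fell and 1 rose (median -0.29), and against control 7 were lower and 1 higher (median -0.81). In the siRNA step both shares (11.1%) lay below those of expressed rows (22.0% and 23.8%). LBR and TM7SF2 both encode sterol reductases for the same step, and LBR is also the lamin B receptor of the inner nuclear membrane. In the fit of all 9 libraries both passed only in TLX+siTLX against control. There LBR was higher (1.13, adjusted p = 7.1e-06) and TM7SF2 lower (-0.81, adjusted p = 0.000408).

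LBR (chromosome 1, 225401502 to 225428925, minus strand) read 5.82, 5.78 and 5.79 in S1 to S3, 6.10, 5.87 and 6.01 in S4 to S6 and 7.01, 7.00 and 6.75 in S7 to S9. The groups did not overlap, with the siRNA group far above. LBR rose 1.90-fold with the siRNA (0.93, SE 0.08, adjusted p = 6.92e-05), and the value was 1.01 without S9. With overexpression it was 0.20 (adjusted p = 0.0981, and 0.0374 without S9). TM7SF2 (chromosome 11, 65111845 to 65116384, plus strand) read 3.94, 4.06 and 4.12 in the control libraries, 3.59, 3.34 and 3.12 under TLX overexpression and 3.29, 3.17 and 3.21 after the siRNA. Both overexpressing groups lay below the control libraries and overlapped each other. TM7SF2 fell by 0.69 with overexpression (SE 0.11, adjusted p = 0.00138), and its siRNA step was -0.12 (adjusted p = 0.5).

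HSD17B7 (chromosome 1, 162790702 to 162812817, plus strand) reduces the sterol ketone left by demethylation. It read 5.28, 5.36 and 5.27 in control cells, 4.15, 4.25 and 3.91 in overexpressing cells and 3.76, 3.72 and 3.36 in those given the TLX siRNA. No groups overlapped. HSD17B7 fell to 43.6% of control with overexpression (-1.20, SE 0.12, adjusted p = 7.26e-05), and further with the siRNA (-0.49, adjusted p = 0.0151), ending at -1.69 from control (adjusted p = 6.64e-06). Reads of a pseudogene, HSD17B7P2, could be split with it. HSD17B7P2 is listed under separate identifiers with the same values, each at 6.84% of the CPM of HSD17B7. It was at -1.92 with overexpression (adjusted p = 2.43e-05) and -0.63 with the siRNA (adjusted p = 0.0172).

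MSMO1, the sterol methyl oxidase, was lower by -0.72 with overexpression (adjusted p = 0.0157), and its siRNA step of -0.51 did not pass (adjusted p = 0.0812). That step was -0.26 without S9 (adjusted p = 0.0713), and the authors' deposited table, with S9, gives it a false discovery rate of 0.0384. DHCR7, which catalyses a terminal reduction, was lower by -0.67 (adjusted p = 0.00603) and CYP51A1, the lanosterol demethylase, by -0.60 (adjusted p = 0.0189). SC5D (sterol desaturase) had -0.30 and EBP (sterol isomerase) -0.15, neither of which passed in the fit of all 9 libraries. Without S9 SC5D passed (adjusted p = 0.0068) and EBP did not (adjusted p = 0.176). Both were lower against control after the siRNA (-0.64, adjusted p = 0.00858, and -0.33, adjusted p = 0.0252). NSDHL, a decarboxylating sterol dehydrogenase, passed in none of the comparisons, with values of -0.07, -0.12 and -0.19.

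The regulators did not all move together. Of the 5 genes of the SREBP system, 2 fell and none rose with overexpression (median -0.09). With the siRNA 2 fell and 3 rose (median 0.14), and against control 1 was lower and 1 higher (median -0.05). With overexpression 40% were thus lower, against 27.4% of expressed rows. In the siRNA step it was 40% and 60%, against 22.0% and 23.8%. With only 5 genes these shares are coarse. SREBF1 (chromosome 17, 17810399 to 17837002, minus strand), which encodes SREBP-1, read 7.42, 7.44 and 7.50 in S1 to S3, 6.84, 6.52 and 6.92 in S4 to S6 and 7.26, 7.50 and 7.84 in S7 to S9. TLX+siCTL lay below all other libraries, and the other groups overlapped. SREBF1 fell to 61.8% of control with overexpression (-0.69, SE 0.15, adjusted p = 0.00595) and rose 1.71-fold with the siRNA (0.78, SE 0.15, adjusted p = 0.00463), to 0.08 from control (adjusted p = 0.726). S9, lowest for most enzymes, was the highest of its group here, and the siRNA step without it was 0.62 (adjusted p = 0.014).

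SREBF2 (chromosome 22, 41833079 to 41907308, plus strand) encodes SREBP-2, the main regulator of cholesterol synthesis, and is the promoter with the sterol response element core. It read 8.19, 8.22 and 8.21 in the control libraries, 7.99, 7.97 and 8.02 under TLX overexpression and 8.15, 8.20 and 8.04 after the siRNA. TLX+siCTL again lay below all other libraries. SREBF2 fell by 0.21 with overexpression (SE 0.04, adjusted p = 0.00507), a fall to 86.2% of control. Its rise of 0.14 with the siRNA (adjusted p = 0.0471) was near the threshold, with adjusted p values from 0.00397 to 0.14 under the alternatives. TLX+siTLX was at -0.07 from control (adjusted p = 0.252).

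INSIG1 (chromosome 7, 155297776 to 155310235, plus strand), itself a well-known SREBP target, read 8.81, 8.90 and 8.76 in control cells, 8.80, 8.73 and 8.74 in overexpressing cells and 8.42, 8.42 and 7.93 in those given the TLX siRNA. The first 2 groups overlapped, and the siRNA group lay below both. INSIG1 was at -0.07 with overexpression (SE 0.12, adjusted p = 0.726) and fell with the siRNA (-0.50, SE 0.12, adjusted p = 0.0156; -0.33 without S9, adjusted p = 0.00303). INSIG2 (chromosome 2, 118088452 to 118110997, plus strand), whose printed promoter holds neither motif, read 5.79, 5.83 and 5.79 in S1 to S3, 5.79, 5.66 and 5.70 in S4 to S6 and 6.02, 5.92 and 6.02 in S7 to S9. Its siRNA group lay above both others. INSIG2 rose by 0.27 with the siRNA (SE 0.04, adjusted p = 0.00249). SCAP was at 0.17 with overexpression (adjusted p = 0.0831) and fell by 0.23 with the siRNA (adjusted p = 0.0369; -0.14 without S7).

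**Figure D5:**
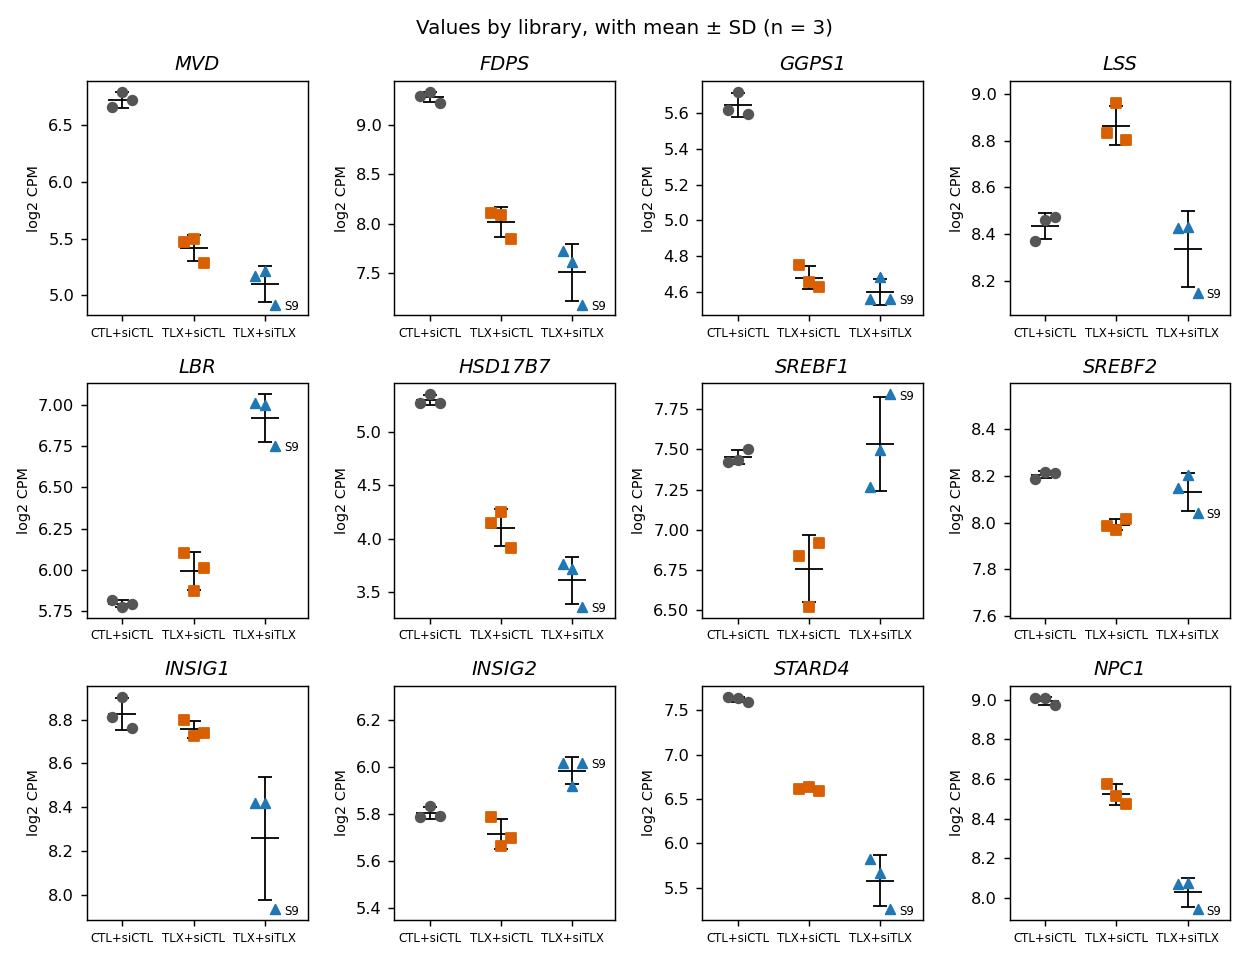
Log2 CPM (y axis) of 12 genes in the 3 groups (x axis), with points for libraries, bars for mean ± SD (n = 3) and S9 labelled. SREBF1 and SREBF2 are lowest in TLX+siCTL, LSS is highest there, and MVD, FDPS, HSD17B7, STARD4 and NPC1 step down from group to group.

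Among the 5 genes of cholesterol transport and storage, 4 fell and 1 rose with overexpression (median -0.47). With the siRNA 2 fell and 1 rose (median 0.04), and against control 3 were lower and 1 higher (median -0.49). The share higher, 20% in each comparison, lay below that of expressed rows, and shares of 5 genes are coarse. STARD4 (chromosome 5, 111496033 to 111512590, minus strand) is a soluble carrier of cholesterol between membranes and a SREBP target. It read 7.65, 7.64 and 7.59 in the control libraries, 6.62, 6.63 and 6.59 under TLX overexpression and 5.82, 5.67 and 5.25 after the siRNA. The groups stood well apart. STARD4 fell by 1.01 with overexpression (SE 0.12, adjusted p = 0.000217) and again with the siRNA (-1.03, SE 0.12, adjusted p = 0.000347), reaching 24.2% of control (adjusted p = 2.51e-06). Without S9 the siRNA step was -0.87 (adjusted p = 0.000131).

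NPC1 and NPC2, which act in turn to take cholesterol out of the lysosome, moved in opposite directions. NPC1 (chromosome 18, 23506184 to 23586898, minus strand) read 9.01, 9.01 and 8.97 in control cells, 8.58, 8.52 and 8.47 in overexpressing cells and 8.07, 8.07 and 7.94 in those given the TLX siRNA. It fell by 0.47 with overexpression (SE 0.05, adjusted p = 6.96e-05) and by 0.49 with the siRNA (SE 0.05, adjusted p = 0.00011), to 51.2% of control. NPC2 (chromosome 14, 74476192 to 74494177, minus strand) read 7.54, 7.50 and 7.48 in S1 to S3, 7.88, 7.87 and 7.80 in S4 to S6 and 8.04, 8.04 and 8.04 in S7 to S9. For both genes no groups overlapped. NPC2 rose by 0.34 with overexpression (SE 0.03, adjusted p = 6.87e-05) and by 0.19 with the siRNA (SE 0.03, adjusted p = 0.00317).

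SOAT1, the enzyme that esterifies cholesterol, was lower by -0.31 with overexpression (adjusted p = 0.00645) and at 0.04 with the siRNA (adjusted p = 0.783). TMEM97, a protein of the endoplasmic reticulum that binds NPC1, was lower by -0.56 with overexpression (SE 0.18, adjusted p = 0.0431), a call that was lost without S7 or S8 and without each library of the groups compared.

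Split by promoter, the genes with more CCAAT matches had lower medians. The 13 genes with at least 2 matches in their best window had median log2 fold changes of -0.87 with overexpression, -0.32 with the siRNA and -1.23 against control. The 7 with exactly 1 had -0.30, -0.12 and -0.57. The 7 with none (PMVK, CYP51A1, LBR, INSIG2, SREBF1, SCAP and NPC1) had -0.09, 0.13 and 0.08. These medians carry no test, and the classes overlap gene by gene. The classes also differ in role. Most genes with at least 2 matches are enzymes, and the regulators INSIG2, SREBF1 and SCAP are among those with none. Role and number of matches were not separated, and the same split over other genes was not made. With overexpression, NPC2 rose and NSDHL and EBP did not pass among those with at least 2 matches, LSS rose among those with exactly 1, and CYP51A1, NPC1 and SREBF1 fell among those with none.

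Genes next to the pathway were read from lists chosen alongside the 30 members. The lists are short, their counts are read against the shares of expressed rows given above (27.4% lower and 29.3% higher with overexpression, 22.0% and 23.8% with the siRNA), and no list was tested against the enzymes. Of 11 SREBP-1 targets of fatty acid synthesis, 8 fell and 1 rose with overexpression, 4 fell with the siRNA, and 8 were lower than control after it. ACSS2, which makes acetyl-CoA from acetate, had -1.50, -0.34 and -1.84 in the 3 comparisons (adjusted p = 7.03e-06, 0.0339 and 1.4e-06). The desaturase genes FADS1 and FADS2 had -0.95 and -0.85 with overexpression (adjusted p = 3.9e-05 and 1.26e-05). Of 11 genes of SREBP processing and sterol-regulated turnover, 3 fell and 3 rose with overexpression, and 1 fell and 2 rose with the siRNA. In the fit of all 9 libraries these shares were close to the background or below it. Without S9, 3 fell and 5 rose with overexpression, and 2 fell and 3 rose with the siRNA. The background shares of the fit without S9 were not counted. C12orf49, which supports the protease that cuts SREBP, had -0.91 with overexpression (adjusted p = 6.31e-07) and -1.06 against control (adjusted p = 1.44e-07). ERLIN2, which takes part in sterol-driven degradation at the endoplasmic reticulum, had 0.71 with the siRNA (adjusted p = 6.98e-05).

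Of 10 genes of the non-sterol isoprenoid branch none fell and 4 rose with overexpression, and 4 fell and 2 rose with the siRNA. NUS1, a subunit of the enzyme that makes dolichol precursors, had 0.52 and then -0.52 (adjusted p = 1.89e-05 and 3.96e-05). Of 5 genes listed as electron donors or other partners of sterol oxidations, none fell and 2 rose with overexpression. In the siRNA step 2 fell and 1 rose. The larger rise with overexpression was that of PGRMC1 (0.89, adjusted p = 1.61e-06), which is on the list as a partner and not as a donor. PGRMC1 was among those that fell with the siRNA (-0.32, adjusted p = 0.000568). Of 11 genes of lipoprotein uptake and sterol transfer, 3 fell and 1 rose with overexpression, and 5 fell and 2 rose with the siRNA. LIPA, the lysosomal acid lipase, had -0.51 and then -0.92 (adjusted p = 0.000173 and 1.5e-05).

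Of 7 genes of the LXR and efflux list, 4 fell and 1 rose with overexpression, and 1 fell and 1 rose with the siRNA. Besides targets the list holds the genes of LXR itself, NR1H2 and NR1H3. NR1H3 was among those that fell with overexpression (-0.58, adjusted p = 0.00616). LXR is the nuclear receptor that senses oxysterols and drives cholesterol efflux. LPCAT3, a phospholipid-remodelling LXR target, had -1.25 with overexpression (adjusted p = 4.29e-06) and 0.70 with the siRNA (adjusted p = 0.000177). ABCA1, the efflux transporter, read 7.64, 7.58 and 7.61 in the control libraries, 5.18, 4.92 and 5.83 under TLX overexpression and 5.70, 5.92 and 6.81 after the siRNA. Control libraries lay above all others, and the overexpressing groups overlapped. ABCA1 fell by 2.30 with overexpression (SE 0.30, adjusted p = 0.000383), and its siRNA step of 0.83 did not pass (adjusted p = 0.0806; 0.50 without S9, adjusted p = 0.229).

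In the authors' deposited table, at a false discovery rate under 0.05, 20 of the 30 genes were lower and 2 higher with overexpression, 10 and 5 with the siRNA, and 21 and 3 against control. The genes called in both that table and the limma fit, in the same direction, numbered 21, 14 and 23.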

How the data were processed

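RNA of 9 libraries was measured with a stranded TruSeq mRNA preparation, per the labels' protocols. The authors deposited log2 CPM values per Ensembl gene, and a second table of signed fold changes, p-values and false discovery rates per comparison. The submitters' processing notes name GRCh38, kallisto 0.44.0, edgeR and limma without saying what each did. Each table column names its group and a running number, S1 to S9 here, that is in no label. The lowest value, -5.33 in every library, is what 0 reads give if a prior count of 2 was added, which gave the library sizes. Only 29.5% to 31.4% of rebuilt values lay within 0.01 of a whole read, so no count test was run, and fold changes of genes with few reads, such as NR2E1, are understated.

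The deposited log2 values were fitted with limma 3.58.1 in R 4.3.3: all 9 libraries, 1 mean per group, an intensity trend, two-sided tests, and Benjamini-Hochberg adjustment over 27548 rows with a threshold of 0.05. Values without S9 come from the same fit with the other 8 libraries. The fit was tested on simulated data. Chi-square per gene between libraries of a group was 9.61 to 58.7, where counting noise gives about 1. The libraries thus differed by more than counting noise of the rebuilt reads. Repeated preparations of the same RNA could also exceed 1, so this check does not exclude technical repeats. Values per library were given for NR2E1, for the 3 genes of each role with the smallest F test p, and for INSIG1, INSIG2, SREBF1 and SREBF2, and from each further pathway list the 3 genes with the smallest F test p could be named. The marker lists, the LXR genes past those 3 (ABCG1, SMPDL3A, NR1H2 and NR1H3) and other values per library were named outside this rule, the LXR genes after their values were seen. The 30 genes, the lists and the tests were chosen with earlier results of these data known. Gene positions are those of GENCODE 29 (29 of 30 identifiers found), and promoters come from RefSeq. Alternatives were a log2(CPM + 1) scale, a filter at a mean log2 CPM of 1, library medians centred, quantile normalization, no intensity trend, only the 2 groups compared, each library left out in turn and, added after seeing the data, only the genes on 1 row.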

Additional observations from a re-analysis of the deposited data

How the results depend on the processing

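Over 1392 alternative values of single genes no call reversed, 97 lost the threshold and 19 gained it. With overexpression, the count of higher genes was 4 with the filter on low values, against 2, and 1 over the genes on 1 row (without FDFT1 and LSS), and the median log2 fold change ranged from -0.62 to -0.47 with single libraries left out (highest without S6). With the siRNA, the count of lower genes, 9 in the reported fit, was 5 without the intensity trend and 3 in a fit of only the 2 groups compared, and ranged from 3 to 8 with single libraries left out. Its median ranged from -0.34 to -0.09 and that against control from -0.83 to -0.55, nearest 0 without S9 in each. The causes were not tested. On the promoter windows of 250 bases before the start only, CCAAT stood in 22 of 36 starts (61.1%, against 32.0% of all starts). No paired analysis was possible because the columns of the table carry no replicate number of the labels. The depth limits little here, since every value of the 30 genes rested on at least 687 rebuilt reads, while 3 libraries a group limit the precision.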

Other observations

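Within the TLX-overexpressing groups, the libraries lowest for most synthesis enzymes, S6 and S9, held the highest values of 3 of the 7 genes of the LXR and efflux list. ABCA1 read 5.83 log2 CPM in S6 against 5.18 and 4.92 in S4 and S5, and 6.81 in S9 against 5.70 and 5.92 in S7 and S8. MYLIP, an LXR target that degrades lipoprotein receptors, read 4.73 in S6 against 4.48 and 4.43, and 4.40 in S9 against 4.05 and 4.10. ABCG1, an efflux transporter, read 0.29 in S6 against -0.49 and -0.41, and 0.99 in S9 against -0.02 and -0.18. SREBF1, which is outside this list, was the highest of its group in both libraries too (6.92 in S6 and 7.84 in S9).

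The other 4 genes of the list did not share this. LPCAT3 and NR1H3 were highest in S9 (4.87 and 3.18) and lowest in S6 (3.92 and 2.63), NR1H2 was highest in S9 (6.42) and between the others in S6 (6.47), and SMPDL3A was lowest in both (4.22 in S6 and 4.04 in S9). In the control group S3, lowest for 15 of 20 enzymes by a median of only -0.05, had the lowest MYLIP, the highest ABCG1 (0.54) and a middle ABCA1 (7.61). The genes, SREBF1 included, were singled out after their values were seen, and no test was made of the pattern. How many expressed rows were highest in both S6 and S9 was not counted. The count for the list therefore cannot be read against other genes, and a part of LXR in it was not tested.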
